A study of Homo sapiens with 4 samples.

Results

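A set of 10 genes of the epithelial acute phase and complement response were followed in PC3 cells depleted of ALKBH3, an enzyme that removes methyl groups from alkylated DNA and RNA. The 10 genes were SAA1, SAA2, LCN2, C3, CFB, C1R, C1S, SLPI, PI3 and C15orf48, out of 19102 genes named on the array, and all probes of each gene were taken, whatever their values. PC3 is an established human prostate cancer cell line. Cells were infected for 48 h with lentivirus carrying ALKBH3 shRNA or Control shRNA, which targeted GFP, and puromycin selection then lasted 48 h or 96 h before RNA was taken. Both groups therefore carried a lentivirus and were under puromycin. Each of the 4 combinations was measured on 1 single-colour Agilent array, so the time points were the only repeat of each shRNA, and neither the labels nor the methods say which hairpin against ALKBH3 was used or whether the time points came from separate infections. The p-values below measure the spread between these 4 arrays, which may be technical, and the number of arrays limits their precision. Fits that compare the shRNAs without the time point in the model also count the change from 48 h to 96 h in that spread.

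The acute phase response is the rise of secreted defence proteins after infection or injury. It is best known in the liver, where interleukin-6, interleukin-1 and the factors STAT3 and NF-kB drive it, but epithelial cells also make many of the same proteins at mucosal surfaces. The complement system is a cascade of plasma proteases: C1R and C1S start its classical pathway, factor B (CFB) carries its alternative pathway, and C3 is the protein on which all pathways meet. SLPI and PI3 (elafin) are protease inhibitors of mucosal secretions, LCN2 (lipocalin 2) withholds iron from bacteria by binding their siderophores, and SAA1 and SAA2 encode serum amyloid A. C15orf48, now named COXFA4L3 in RefSeq, encodes a small mitochondrial protein related to the complex IV subunit COXFA4 (formerly NDUFA4), and its transcript is also the host of the microRNA miR-147b.

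Upstream sequence was held in RefSeq (GRCh38.p14) for 4 of the 10 genes, at 5 start sites because C1R has more than 1. The 250 bases before the start are shown for 4 of these sites: C15orf48, the gene past the cutoffs with ALKBH3 shRNA, CFB, which was detected on 1 array, LCN2, which was lower at 96 h, and C1R, whose differences were negative. Capitals mark the letters of motifs searched on both strands. The motifs were the NF-kB consensus, found in 9.96% of 35116 RefSeq windows of the same length, the STAT element TTCNNNGAA, in 6.57%, the interferon element ISRE (GAAA, any 2 bases, GAAA), in 3.02%, and the TATA motif TATAA, in 18.9%.
C15orf48, chr15:45430360-45430609, plus strand: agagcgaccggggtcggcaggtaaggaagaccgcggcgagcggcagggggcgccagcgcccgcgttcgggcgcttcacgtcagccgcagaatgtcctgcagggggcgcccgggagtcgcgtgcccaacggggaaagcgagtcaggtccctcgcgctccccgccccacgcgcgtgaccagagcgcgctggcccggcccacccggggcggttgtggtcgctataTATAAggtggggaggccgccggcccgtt
CFB, chr6:31945845-31946094, plus strand: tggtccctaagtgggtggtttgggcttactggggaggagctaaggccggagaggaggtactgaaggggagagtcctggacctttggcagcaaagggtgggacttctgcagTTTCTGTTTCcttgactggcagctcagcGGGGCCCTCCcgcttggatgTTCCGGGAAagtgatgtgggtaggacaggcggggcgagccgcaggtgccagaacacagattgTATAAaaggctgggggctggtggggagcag
LCN2, chr9:128149203-128149452, plus strand: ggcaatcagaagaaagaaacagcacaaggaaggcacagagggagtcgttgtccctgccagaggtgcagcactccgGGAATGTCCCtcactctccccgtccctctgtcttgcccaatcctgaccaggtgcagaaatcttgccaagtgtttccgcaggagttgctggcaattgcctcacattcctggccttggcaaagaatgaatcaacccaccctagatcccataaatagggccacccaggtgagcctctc
C1R, second start, chr12:7091894-7092143, minus strand: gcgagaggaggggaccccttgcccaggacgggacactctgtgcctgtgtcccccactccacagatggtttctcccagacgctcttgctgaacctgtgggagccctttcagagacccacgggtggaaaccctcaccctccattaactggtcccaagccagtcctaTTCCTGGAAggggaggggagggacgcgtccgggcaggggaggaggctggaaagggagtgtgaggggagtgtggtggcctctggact
The CFB window held all of the motifs searched: an NF-kB consensus match GGGGCCCTCC starting 112 bases before the start, a STAT element TTCCGGGAA 92 bases before it, an interferon element on the reverse strand 140 bases before it and a TATA motif 30 bases before it. The LCN2 window held an NF-kB consensus match on the reverse strand, 175 bases before the start, and none of the other motifs. The C15orf48 window held a TATA motif 28 bases before the start and none of the others. The C1R window printed held a STAT element TTCCTGGAA 86 bases before the start, and the window of the other C1R start held no motif. These are matches of letters only. The mature microRNA of the C15orf48 transcript, at chr15:45433098-45433118 on the plus strand, is shown with its seed (bases 2 to 8) in capitals, and the microRNA itself was not measured here.
hsa-miR-147b-3p: gUGUGCGGaaaugcuucugcu

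Depth and quality were close on the 4 arrays. The intensity at the 75th percentile lay between 2150 and 2394, between 67.0% and 70.9% of probes were well above background, and no spot was saturated. All signals below are log2 intensities relative to the 75th percentile of their own array. Both ALKBH3 probes were lower with ALKBH3 shRNA on both slides, by a log2 value of -2.03 and -2.07 for one probe and -1.74 and -1.51 for the other at 48 h and 96 h. The epithelial markers were present, with 8 of 8 well above background on every array and a summed intensity of 746817 to 847716, a sum that includes VIM, which is also a mesenchymal marker, whereas KLK3, a marker of prostate luminal cells, was above background on no array. Of 8 hepatocyte markers, 1 was well above background on all arrays and APOB, TTR, FGB and SERPINC1 were on none, and their summed intensity was 216 to 307. The arrays of a time point shared a slide, so time point and slide cannot be told apart, whereas the shRNAs were always compared within a slide.

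The 10 genes had 14 probes on the array, and 6 genes had 1 probe. C15orf48, PI3, SLPI, LCN2, C3, C1R and C1S, 7 genes in all, had a probe well above background on all 4 arrays and were tested, so none of them entered the test through 1 shRNA alone. CFB was well above background on 1 array only, and SAA1 and SAA2 on none, so these 3 genes were not tested. C15orf48 was higher with ALKBH3 shRNA, past a 2-fold change and an unadjusted p of 0.05, and the other 6 were not past these cutoffs. That is 1 of 7 higher, where the cutoffs called 1.04% of the 14556 genes tested, and 0 of 7 lower, where they called 0.234%. By direction alone, C15orf48, PI3 and SLPI had positive differences at both time points and LCN2, C3, C1R and C1S had negative differences at both. Of the 14556 genes tested, 5033 had positive differences at both time points and 5184 had negative differences at both. The median log2 fold change of the 7 was -0.23, against -0.0030 for all genes tested.

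**Figure D1:**
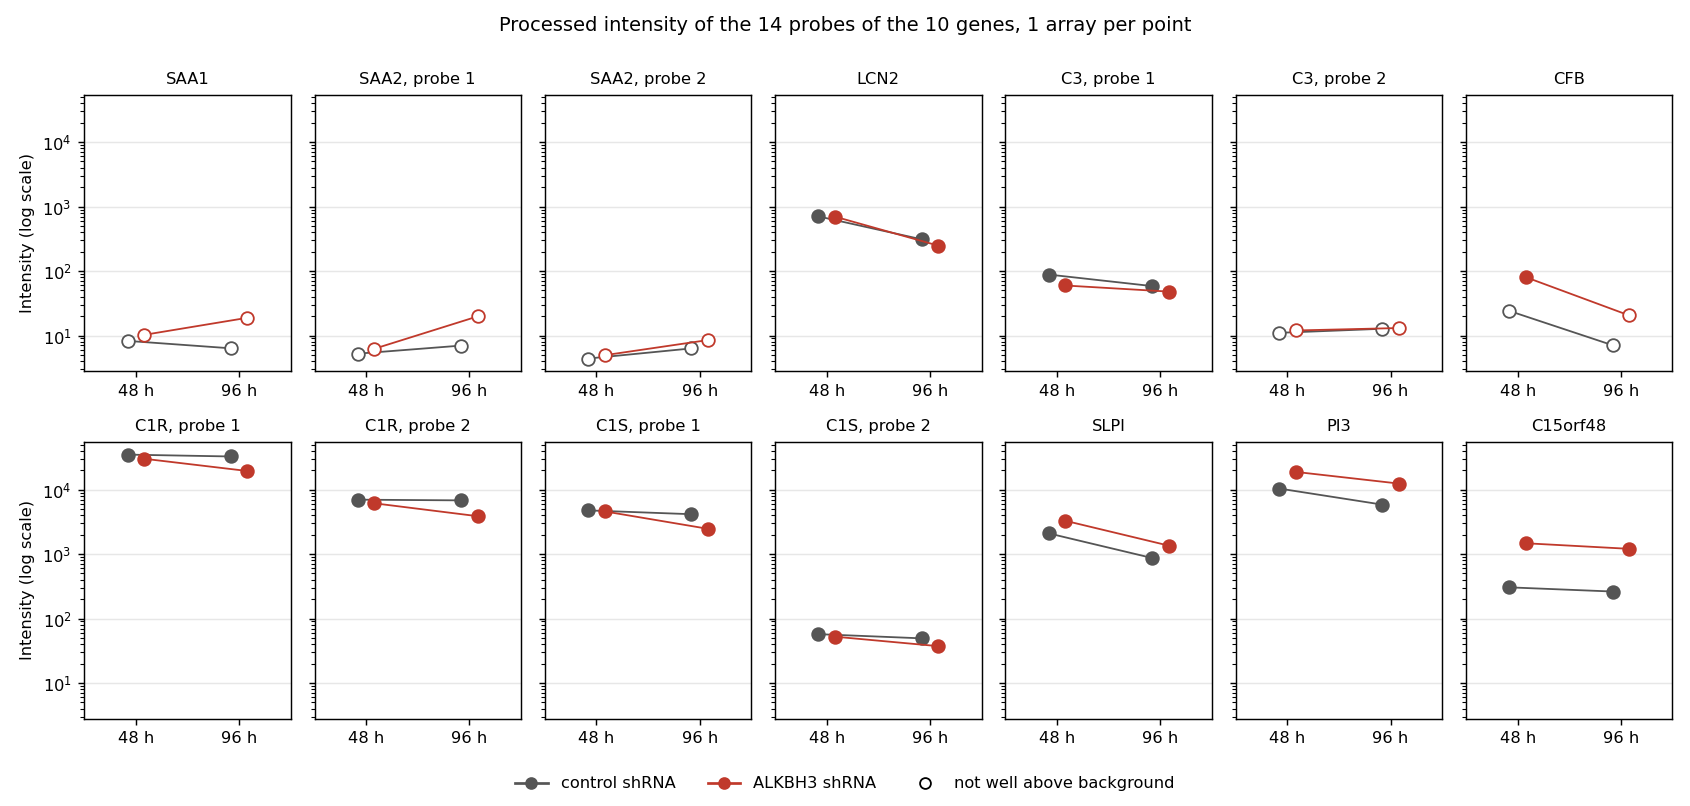
Processed intensity (log scale) of the 14 probes at 48 h and 96 h with control shRNA (grey) and ALKBH3 shRNA (red). Each point is 1 array and open points were not well above background. C15orf48 rose from 304 to 1470 at 48 h and from 262 to 1205 at 96 h, and the probes of SAA1 and SAA2 stayed below 20 on every array.

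C15orf48 was the one member with a large difference at both time points. At 48 h its signal was -2.82 for control and -0.64 for ALKBH3 shRNA, and at 96 h it was -3.16 and -0.99. Both arrays with ALKBH3 shRNA were thus well above both control arrays, and the groups did not overlap. The log2 difference was 2.18 at 48 h and 2.17 at 96 h, or 4.54-fold and 4.49-fold, each with an error of 0.21 from the image software, which covers the spots of the arrays compared and not the cells. Over the 4 arrays, 2 per shRNA, the limma log2 fold change was 2.17 ± 0.20 (SE). Its limma p was 0.000199 before adjustment and 0.253 after Benjamini-Hochberg adjustment over all genes. No gene on the array passed an adjusted p of 0.05 in that limma fit, in which 1213 genes had an unadjusted p below 0.05. When limma treated the time point as a block, the adjusted p of C15orf48 was 0.0209.

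Of the other tested members, the mucosal protease inhibitors SLPI and PI3 had higher values with ALKBH3 shRNA on both slides, by smaller amounts than C15orf48. For PI3 the signals were 2.27 and 3.04 at 48 h, control shRNA first, and 1.32 and 2.37 at 96 h. ALKBH3 shRNA was higher on each slide, by 0.77 ± 0.20 at 48 h and 1.05 ± 0.20 at 96 h (image error). The groups did not overlap, although the lowest ALKBH3 value, 2.37, was close to the highest control value, 2.27. The limma log2 fold change of PI3 was 0.91 ± 0.40 (SE, adjusted p = 0.666), and the adjusted p with the block was 0.0346. PI3 was past the cutoffs without the control array at 48 h (1.39) or the ALKBH3 array at 96 h (1.24). For SLPI they were -0.04 and 0.52 at 48 h, and -1.43 and -0.82 at 96 h. The differences within a slide were 0.56 and 0.61, each ± 0.20, but the groups overlapped, because the control array at 48 h was above the ALKBH3 array at 96 h. The limma log2 fold change of SLPI was 0.58 ± 0.65 (SE, adjusted p = 0.921). With the block, the limma SE was 0.076 and the adjusted p was 0.0418. The sign of the log2 fold change turned without the ALKBH3 array at 48 h (-0.09) or the control array at 96 h (-0.11). An adjusted p below 0.05 with the block was thus reached by 3 of the 7 genes in the upward direction, against 2.96% of all genes, and by 0 in the downward direction, against 1.5%.
Cell type markers also differed between these arrays. Among the 8 epithelial markers, 3 had positive differences at both time points and 3 had negative differences at both (KRT18, KRT19 and VIM). Their median log2 fold change was 0.08. Of the 8, 0 were past the cutoffs and 3 were higher at an adjusted p below 0.05 with the block. These were EPCAM, with differences of 0.96 at 48 h and 0.99 at 96 h (limma adjusted p = 0.0264 with the block), KRT7, with 0.83 and 0.93 (0.0294), and CDH1, with 0.90 and 0.58 (0.0472). At 48 h the summed intensity of 6 fibroblast markers was 1422 for control and 2328 for ALKBH3 shRNA, and at 96 h it was 1005 and 1899. Most of each sum was COL1A1, with 1257 and 1910 at 48 h and 860 and 1637 at 96 h. Of the 4 fibroblast markers tested, 3 had positive differences at both time points. The other, COL3A1, had -0.08 at 48 h and -0.78 at 96 h. COL1A2 and PDGFRB were above background on no array. LUM was past the cutoffs and was well above background on 3 arrays, so it entered the test through 1 shRNA alone. The summed intensity of the 8 leukocyte markers with a probe was 1805 for control and 2179 for ALKBH3 shRNA at 48 h. At 96 h it was 1534 and 1592. Most of each sum was CD68, with 1313 and 1645 at 48 h and 1010 and 1028 at 96 h. Of these 8 markers, 6 were well above background on all arrays and MPO was on none. The part of these markers and cells in the differences of the 10 genes was not tested, and in RNA from whole cultures more cells of a kind and more RNA per cell cannot be told apart.

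LCN2 differed less between the shRNAs than between the time points. Its signal was -1.61 and -1.71 at 48 h and -2.92 and -3.27 at 96 h, with control shRNA first, so both shRNAs were higher at 48 h than at 96 h. The difference between shRNAs was -0.10 ± 0.20 at 48 h and -0.36 ± 0.21 at 96 h (image error). The limma log2 fold change was -0.23 ± 0.69 (SE, adjusted p = 0.985). With the time point as a block, the limma SE was 0.098 and the adjusted p was 0.244. The sign of the log2 fold change turned without the control array at 48 h (0.42) or the ALKBH3 array at 96 h (0.55).

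The serum amyloid A genes were not well above background on any array. SAA1 had intensities of 8.25, 10.2, 6.33 and 18.8 on control 48 h, ALKBH3 48 h, control 96 h and ALKBH3 96 h, none of them well above background. The first SAA2 probe had 5.23, 6.23, 6.98 and 19.8 and the second 4.39, 4.95, 6.31 and 8.50, again none above background. The highest value of each probe was on the ALKBH3 array at 96 h, but no fold is given because both groups were below background. SAA1 and SAA2 are near-identical paralogs, so their probes may read either transcript.

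Among the complement genes, the main probes of C1R and C1S were above the 75th percentile on every array, and CFB was detected on a single array. C1R and C1S encode the proteases of the C1 complex. The brighter C1R probe had signals of 4.02 and 3.72 at 48 h and 3.80 and 3.02 at 96 h, with control shRNA first. ALKBH3 shRNA was lower on both slides, by -0.30 at 48 h and -0.78 at 96 h on the log2 scale, each ± 0.20 by image error. A second C1R probe gave differences of -0.28 and -0.85, close to those of the first. C1S had 1.15 and 1.01 at 48 h and 0.83 and 0.04 at 96 h, a difference of -0.14 and -0.79, each ± 0.20. Its second probe, between -5.23 and -6.00, gave -0.22 ± 0.29 and -0.44 ± 0.40. At 48 h the C1S differences were within the image error, and at 96 h both probes were past it, the second by little. Neither gene was called, with a limma log2 fold change of -0.54 ± 0.27 for C1R (SE, adjusted p = 0.708) and of -0.46 ± 0.36 for C1S (SE, adjusted p = 0.853). The value of C1R was -0.89 without the ALKBH3 array at 48 h and -0.19 without that at 96 h, and the sign of C1S turned without the ALKBH3 array at 96 h (0.019).

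C3 was lower with ALKBH3 shRNA within each slide but was not called. Its signal was -4.61 and -5.26 at 48 h and -5.32 and -5.64 at 96 h, so the control array was above the ALKBH3 array on each slide while the control at 96 h lay below the ALKBH3 array at 48 h. The difference was -0.65 ± 0.25 at 48 h and -0.32 ± 0.31 at 96 h (image error), and the limma log2 fold change was -0.48 ± 0.29 (SE, adjusted p = 0.773), or -0.13 without the control array at 48 h and -0.84 without that at 96 h. A second C3 probe was above background on no array.

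CFB was detected with ALKBH3 shRNA at 48 h and on no other array. At 48 h its intensity was 24.0 for control and 80.2 for ALKBH3 shRNA, and at 96 h it was 7.07 and 20.5. On the ALKBH3 array at 48 h it was 3.14-fold above the control signal, which was not well above background. The log2 value of this ratio was 1.65 ± 0.38 (image error). It was at least 3.36-fold above ALKBH3 shRNA at 96 h. The 3.36 is a bound, which sets the bright array against the weakest signal well above background on the ALKBH3 array at 96 h. The signal of the CFB probe there was lower than that. Each of these folds rests on a single pair of arrays and has no test. Between the shRNAs at 96 h no fold is given because neither array was above background.

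The time points ask whether the differences seen at 48 h were still there at 96 h. At 48 h, 1 of the 7 tested genes, C15orf48, was 2-fold higher with ALKBH3 shRNA, against 1.88% of all genes. At 96 h these were C15orf48 and PI3, 2 of 7, against 1.46%. Only C15orf48 was 2-fold higher at both, as were 0.694% of all genes. The log2 fold change at 96 h minus that at 48 h was -0.02 for C15orf48, 0.05 for SLPI and 0.28 for PI3, and the differences themselves had image errors of 0.20 to 0.21 at each time point. It was -0.26 for LCN2, -0.48 for C1R, -0.64 for C1S and 0.33 for C3. The median over the 7 was -0.02. Over all genes the size of this change had a median of 0.13 and a 95th percentile of 0.54, so C1S was the one member beyond that percentile. With 1 array per shRNA and time point, these changes carry no test.

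Lists of other induced genes were placed beside the 10. The 22 interferon-induced genes tested had a median log2 fold change of 1.90 at the first time point and 0.96 at the second, and the difference was smaller at 96 h for 22 of 22, by a median of -1.09. The 17 NF-kB target genes had medians of 0.31 and 0.46, and 8 of 17 were smaller at 96 h. For the 151 genes called higher on the array, the medians were 1.32 and 1.24, and 83 were smaller at 96 h. These genes were called in a fit that counts the change from 48 h to 96 h as spread, which favours like signals. Their medians are thus partly set by that choice and do not measure persistence. Over all 14556 genes tested, the log2 fold change was lower at 96 h than at 48 h for 6876. The lists share the same 4 arrays, and the differences between them were not tested.

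**Figure D2:**
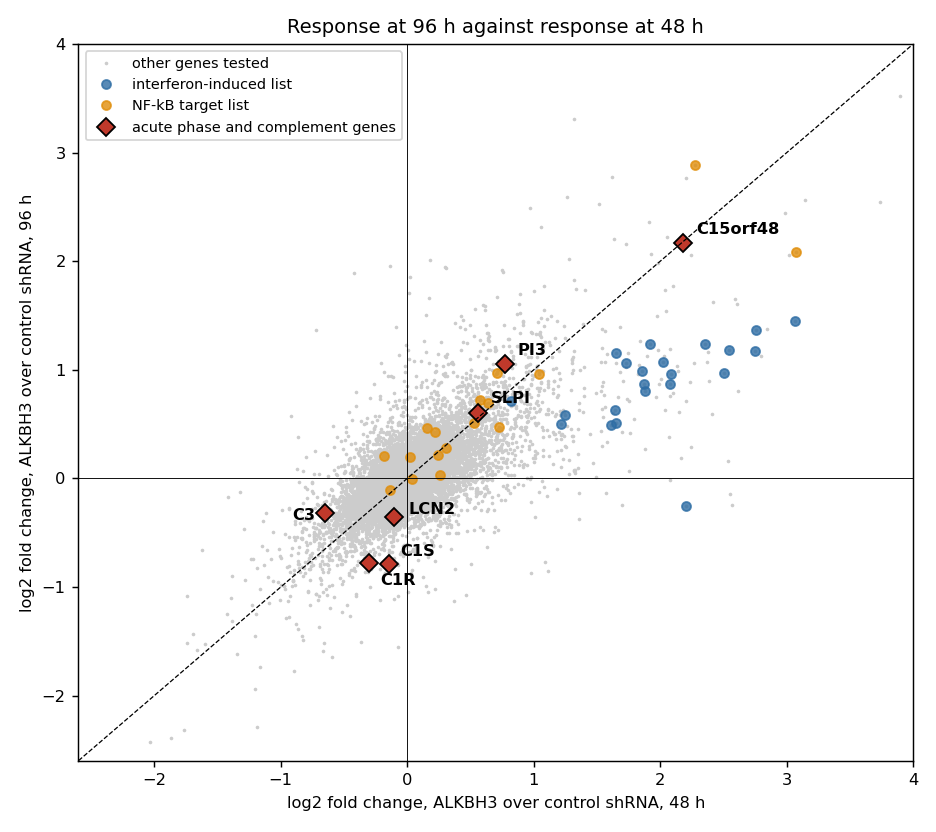
Log2 fold change of ALKBH3 over control shRNA at 96 h against that at 48 h for the genes tested (grey), the interferon-induced list (blue), the NF-kB target list (orange) and the 7 tested acute phase and complement genes (red diamonds), each value from 1 array against 1 array. The dashed line marks equal values, and 1 gene lies outside the axes. C15orf48 sits on the line at 2.18 and 2.17, and the interferon genes lie below it.

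The signals of the 7 genes were lower at 96 h than at 48 h with both shRNAs. LCN2 fell by 1.30 on the log2 scale with control and by 1.56 with ALKBH3 shRNA. SLPI fell by 1.39 and 1.34, and PI3 by 0.95 and 0.67. C3 had a change of -0.71 and -0.38, C1R of -0.22 and -0.70, C1S of -0.32 and -0.96, and C15orf48 of -0.34 and -0.35. LCN2 and SLPI were thus 2-fold lower in both shRNAs, 2 of 7, as were 0.556% of all genes. In a limma fit of 96 h against 48 h with shRNA in the model, LCN2 (adjusted p = 0.0236), SLPI (adjusted p = 0.0236), PI3 (adjusted p = 0.0264) and C3 (adjusted p = 0.0497) were lower. These were 4 of 7, where 6.94% of all genes were lower, and 0 of 7 were higher. This fit was chosen after the values were seen. The count was 0 when dim probes were kept or shRNA was left out of the model, settings under which no gene on the array passed, and time point and slide cannot be told apart. Over all genes the median change was -0.02 with control and 0.0027 with ALKBH3 shRNA.

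**Figure D3:**
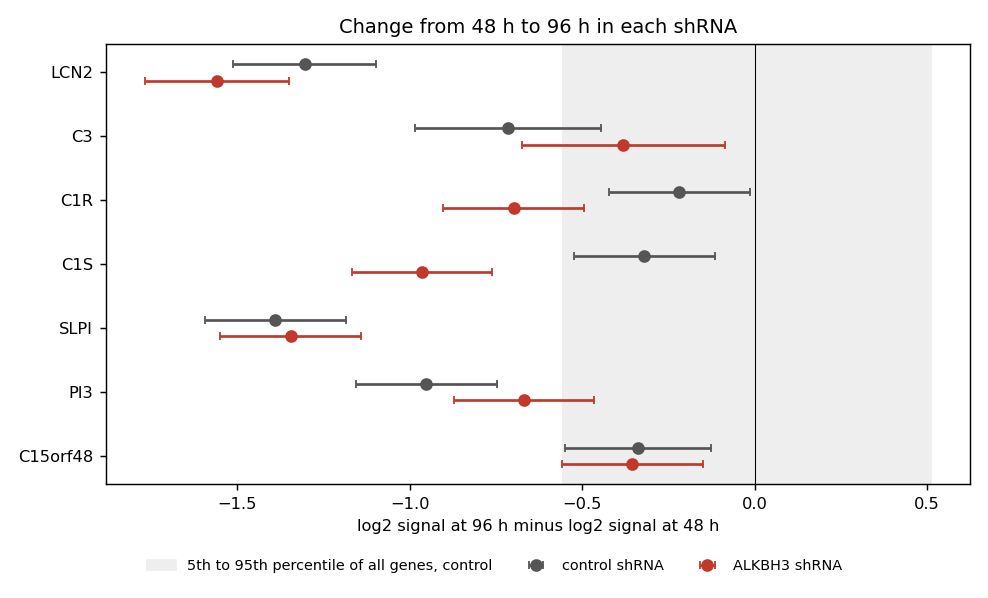
Change in log2 signal from 48 h to 96 h of the 7 tested genes with control shRNA (grey) and ALKBH3 shRNA (red), 1 array at each time. Bars are the error from the image software and the shaded band spans the 5th to 95th percentile of all genes with control shRNA, -0.56 to 0.51. All 14 points lie below 0, and LCN2 and SLPI lie farthest from it.

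The other genes of these pathways were largely not called. Of 11 acute phase genes tested, 0 were past the cutoffs in either direction, and the median log2 fold change was 0.33. As a group they were dim, with a median signal of -5.35, against -0.68 for all genes tested. SERPINA1, the antitrypsin of plasma, had a difference of 0.50 at 48 h and 0.32 at 96 h, and AHSG, the plasma protein fetuin A, of 1.19 and -0.10. Of 12 complement components, 0 were called and the median was 0.05. The lectin pathway gene COLEC11 had differences of 0.64 and 0.40 and FCN1 of 0.32 and 0.35. With the block, 1 acute phase gene was lower at an adjusted p below 0.05 and no complement component passed.

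Among 10 complement regulators and receptors, 1 was called higher and 0 lower, with a median of 0.03. The gene called was CFHR3, with a signal of -4.80 and -2.80 at 48 h and -4.95 and -4.04 at 96 h. Its difference was 2.0 at 48 h and 0.91 at 96 h, with a limma log2 fold change of 1.46 ± 0.43 (SE, adjusted p = 0.504). The difference of CFHR3 was thus larger at 48 h than at 96 h. CFHR3 belongs to a family of genes that share sequence, so its probe may read other members too.

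Of 17 mucosal defence genes, 2 were higher and 1 was lower, with a median of 0.13. SERPINB2, a plasminogen activator inhibitor, had differences of 1.65 and 1.06, and TGM2, a transglutaminase that cross-links proteins, of 1.08 and 1.55, both past 2-fold at both time points. TFF3, a trefoil peptide of mucus, was lower, with differences of -0.65 and -1.52. Of 23 inducers and signalling genes, 0 were higher and 1 was lower. That gene was IL1B, the interleukin-1 beta gene, with signals of 1.58 and 0.19 at 48 h and 0.72 and -0.38 at 96 h. Its differences were -1.39 and -1.10, and its limma log2 fold change was -1.25 ± 0.36 (SE, adjusted p = 0.495, and 0.0264 with the block). None of the 12 complex IV genes was called, and their log2 fold changes lay between -0.15 for COX6C and 0.14 for COX7B, so C15orf48 differed while the subunits of the complex did not pass the cutoffs.

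**Figure D4:**
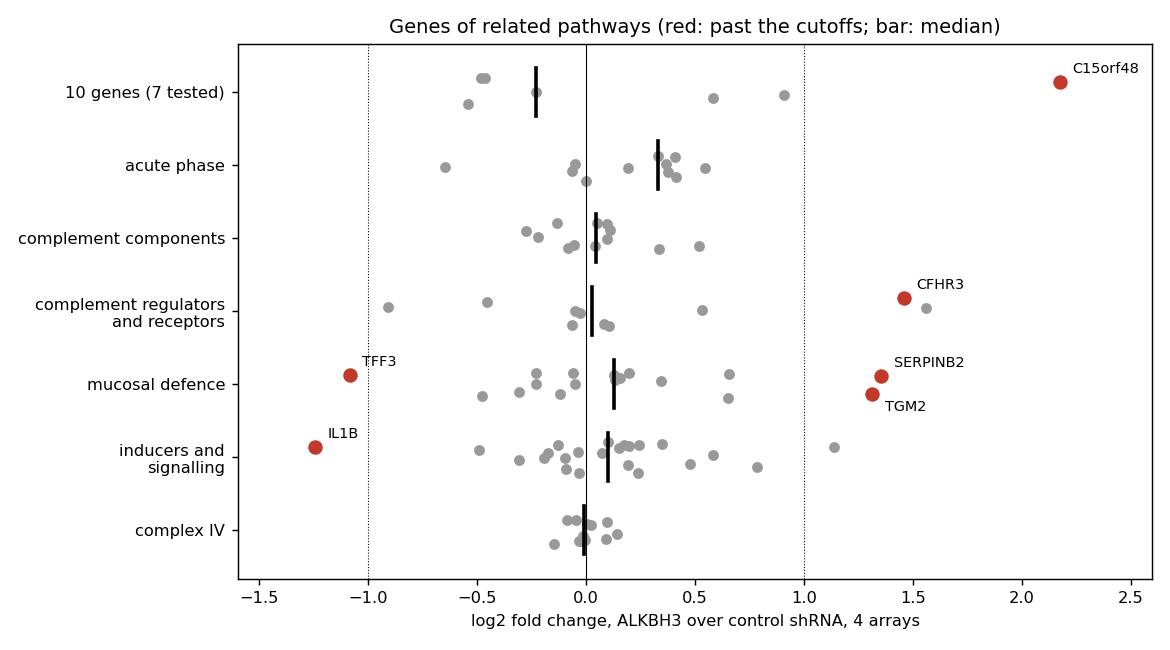
Log2 fold change over the 4 arrays of the 7 tested acute phase and complement genes and of the tested genes of 6 related lists, 1 point per gene. Red points passed a 2-fold change (dotted lines) and an unadjusted p of 0.05 and black bars are medians. C15orf48, at 2.17, lies farthest to the right, and the complex IV genes lie between -0.15 and 0.14.

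The 5 genes whose pattern over the 4 arrays was closest to that of C15orf48 were LTB, SPINK2, SLAMF7, CSF2 and ESPNL, among 14020 genes well above background on all arrays. Likeness was the root mean square distance between log2 signals centred on their own mean. The distance was 0.116 for LTB, which encodes lymphotoxin beta, with differences of 1.93 at 48 h and 2.06 at 96 h. It was 0.148 for SPINK2, a protease inhibitor, and 0.156 for SLAMF7, a receptor of immune cells. CSF2, which encodes the growth factor GM-CSF, was at 0.258, with differences of 2.27 and 2.89, and ESPNL was at 0.267, with 2.59 and 1.65. With 4 arrays, many patterns cannot be distinguished from each other.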

How the data were processed

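The authors deposited the intensities of the spots of each array, from which Agilent Feature Extraction (10.7.3.1 in the file headers, hg19 array design) had subtracted background on that array alone. The authors also deposited log2 values normalized between arrays (unit log2), used as an alternative, and flags, coded as 0 or 1, that mark spots as well above background. Intensities were converted to log2 and centred on the 75th percentile of each array. Between 180 and 379 flagged spots per array were removed and the spots of a probe averaged. A probe well above background (at least 0.5 of its spots) on both arrays of at least 1 shRNA was tested, and the brightest such probe stood for a gene. Probes were named through RefSeq accessions (GRCh38.p14 gene table), which named 24910 of 34127 probes. Members were found through these accessions. limma 3.58.1 in R 4.3.3 compared ALKBH3 with control shRNA without a covariate, with Benjamini-Hochberg adjustment over 14556 genes; calls needed a log2 fold change of 1 and an unadjusted p of 0.05, after the methods. Arrays of a time point shared a slide and deviated together (correlation of deviations 0.703), so the time point was used as a block as an alternative. The steps were tested on simulated data.

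The text names all members, up to 8 called genes per pathway list (where fewer than 2 were called, also the 2 largest differences on all 4 arrays) and the 5 genes most like C15orf48. Some genes that this rule or the marker lists hold are not reported here. Members and lists were chosen with earlier results of these data known. The alternatives were normexp background correction (offset 50), quantile normalization, median centring, the 75th percentile over probes above background on all arrays, the authors' values, other filters, mean or single probes, the block, the methods' unpaired Student test, other cutoffs and leaving out each array.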

Additional observations from a re-analysis of the deposited data

Results flagged for a closer look

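AHSG, a plasma protein gene of the acute phase list, had differences of opposite sign at the time points, 1.19 at 48 h and -0.10 at 96 h, the latter small. At 48 h its signal was -5.81 for control and -4.62 for ALKBH3 shRNA, and at 96 h it was -4.74 and -4.84, so the log2 fold change at 96 h minus that at 48 h was -1.28. The control array was higher at 96 h than at 48 h, and the ALKBH3 arrays were close to each other. The change was not tested, since 1 array stands for each shRNA and time point.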

How the results depend on the processing

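C15orf48 kept its direction under all 19 alternatives, with a log2 fold change of 1.80 to 2.35, and was called under 18 of them. C1R (-0.89 to -0.19), C3 (-0.84 to -0.13) and PI3 (0.43 to 1.39) also kept their direction under all 19, with these ends reached when 1 array was left out. The count of members called higher, 1 in the main setting, stayed 1 when the replicate block by time point was added under the same cutoffs. A rule of an adjusted limma p below 0.05 with no fold cutoff gave 0 without the block. With the block that rule gave 3 (C15orf48, PI3 and SLPI), of which PI3 and SLPI were below 2-fold. The log2 fold change of PI3 was 1.24 without the ALKBH3 array at 96 h and 1.39 without the control array at 48 h. Without the ALKBH3 array at 96 h, CFB passed the filter only because its 1 bright array was then the only ALKBH3 array. The entry of CFB was thus set by the array where it was bright. With the block, no other member had an adjusted p below 0.05. No member was called lower under any alternative. The median log2 fold change, -0.23, was 0.70 with no filter on dim probes, which added CFB, SAA1 and SAA2, and -0.67 to 0.90 when 1 array was left out. The 0.70 rests on SAA1 and SAA2 values below background and the 0.90 includes CFB, so neither describes the 7 genes. Over the same 7 genes the sign of the median also turned, to 0.42, without the control array at 48 h. It was -0.67 without the ALKBH3 array at 48 h and -0.62 without the control array at 96 h. With an array left out, LCN2 ranged from -1.01 to 0.55, SLPI from -0.11 to 1.28 and C1S from -0.94 to 0.019. LCN2 was positive without the control array at 48 h (0.42) and without the ALKBH3 array at 96 h (0.55), SLPI was negative without the ALKBH3 array at 48 h (-0.09) and without the control array at 96 h (-0.11), and C1S was positive without the ALKBH3 array at 96 h (0.019). Such a fit sets time points against each other and assumes that the lone array varies like the others. The count lower at 96 h than at 48 h, 4 in the main setting, was 7 with the authors' values, 0 with no filter and 0 with no shRNA in the model, and the causes were not tested. Leaving out an array leaves that contrast with no residual degree of freedom. Signals of CFB, SAA1 and SAA2 at or below background limit what can be said of them.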
